A study of Homo sapiens with 24 samples.

Results

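The genes of cholesterol and fatty acid synthesis were followed in A549 cells, a human lung adenocarcinoma line, after loss of the cell cycle transcription factors MYBL2 and FOXM1. The group held 32 of the 58721 gene identifiers in the gene-level counts, chosen by name: 5 regulators, 18 sterol enzymes, 1 sterol transport gene and 8 fatty acid enzymes. RNA was sequenced from 24 libraries in 3 experiments, each with its own control. In the first, 4 libraries of cells transfected with a pool of siRNAs to MYBL2 (siMYBL2) and 4 with a pool to FOXM1 (siFOXM1) were set against 4 with a control siRNA (siControl). In the second, 3 libraries with both genes targeted (siBoth) were set against 3 of siControl_Both. In the third, 3 libraries of cells given FDI-6, a small molecule that keeps FOXM1 off DNA, were set against 3 of control_FDI-6. The siRNAs were used at 25 nM and FDI-6 at 20 μM for 24 h. The study names DMSO as what FDI-6 was compared with. Each group came from 1 cell line, the labels do not say whether replicates were separate cultures, and p-values then measure only the spread between these libraries.

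Cells make cholesterol from acetyl-CoA through mevalonate, squalene and lanosterol, and make fatty acids from the same acetyl-CoA through malonyl-CoA. Both branches are switched on by the SREBP transcription factors, which are held in the endoplasmic reticulum by the INSIG proteins when sterol is plentiful and are carried by SCAP to the Golgi for cleavage when it is scarce. SREBF2 encodes the SREBP best known for the sterol branch, and SREBF1 those best known for the fatty acid branch. Growing cells draw on both branches for new membrane.

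Between 16487394 and 30140550 read pairs per library were counted on genes. The keratin genes KRT8, KRT18 and KRT7 were above 600 CPM (counts scaled to the size of each library) in all 24 libraries, the lowest value being 629 CPM, while the T cell gene CD3E had 0 counts in 24 of 24. Other epithelial genes were lower, KRT19 at 37.7 to 349 CPM, CDH1 at 9.52 to 90.4 and EPCAM at 1.67 to 37.6. The fibroblast gene COL1A1 ran from 4.91 to 58.8 CPM and COL1A2 reached 0.891 CPM at most. MYBL2 fell from 154 ± 18.9 CPM (SD, n = 4) in siControl to 6.39 ± 1.88 (n = 4) in siMYBL2, and FOXM1 from 126 ± 13.0 CPM to 12.2 ± 1.30 (n = 4) in siFOXM1. In siBoth the levels were 8.55 ± 2.02 CPM for MYBL2 and 13.2 ± 2.65 for FOXM1, against 174 ± 17.2 and 137 ± 9.17 in siControl_Both (n = 3 each). FOXM1 was also lower in siMYBL2, at 75.9 ± 14 CPM (log2 fold change -0.73, edgeR adjusted p = 0.00754).

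All 32 genes passed the filter on low counts in every comparison. Per kilobase of exon, the fatty acid branch held the most abundant transcripts in siControl, led by SCD, the desaturase that makes oleate, at 352 ± 83.1 CPM per kb (SD, n = 4). ACLY, which makes cytosolic acetyl-CoA from citrate, followed at 172 ± 23.3 CPM per kb, and the fatty acid synthase FASN at 76.0 ± 11.7. The intervals of FASN, the desaturases FADS2 (59.0 ± 13.5) and FADS1 (55.7 ± 9.53) and the regulator SREBF1 (45.5 ± 7.23) touched or overlapped from one neighbour to the next. In the sterol branch EBP, the sterol isomerase, led with 41.3 ± 1.34 CPM per kb, followed by SQLE, the squalene epoxidase, with 38.5 ± 2.21. The lanosterol demethylase CYP51A1 was the lowest of the 32, at 1.72 ± 0.0960 CPM per kb and at least 162 counts per siControl library. Its count is uncertain, because 68.2% of its exon bases in GENCODE V44 are shared with another gene on its strand. The same held for 36.4% of EBP. HMGCS1 shared 37.7% and ACAT2 22.2% of exon bases with genes on the opposite strand, and the strand setting of the counting was not given in the sources used here. HSD17B7 pseudogenes held 12.7% as many counts as HSD17B7 itself.

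Control levels differed between the 3 experiments, so CPM was compared only within an experiment. INSIG1 averaged 136 ± 40.6 CPM in siControl, 182 ± 14.5 in siControl_Both and 27.7 ± 0.289 in control_FDI-6. SCD averaged 1845 ± 436, 2015 ± 388 and 586 ± 10.9 CPM in the same order, and SREBF2 182 ± 24.3, 248 ± 9.60 and 102 ± 0.976.

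NF-Y is a factor that binds CCAAT in promoters of cell cycle genes and of sterol genes alike, so the promoters were searched for these letters, and the stretch that holds them is shown for 5 members named in the comparisons below. RefSeq windows (GRCh38.p14) of 250 bases before to 50 after each start were found for 28 of the 32 genes. ACAT2, FDFT1, SQLE and FASN had no window. CCAAT, on either strand, was present in 25 of the 39 windows of these genes (64.1%), and in 34.6% of all 35116 windows. All windows include those of genes too low to be tested here, and windows of the same gene can overlap. Of genes, 13 of 15 sterol enzymes and 5 of 7 fatty acid enzymes had it in at least 1 window. Capitals mark CCAAT or its reverse complement, and each sequence is read along the strand of its gene:
MSMO1, chr4:165327464-165327659, plus strand: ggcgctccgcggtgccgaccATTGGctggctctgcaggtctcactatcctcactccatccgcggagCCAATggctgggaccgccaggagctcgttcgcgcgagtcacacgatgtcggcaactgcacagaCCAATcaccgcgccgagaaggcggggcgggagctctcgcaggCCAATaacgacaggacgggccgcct
HMGCS1, chr5:43313488-43313587, minus strand: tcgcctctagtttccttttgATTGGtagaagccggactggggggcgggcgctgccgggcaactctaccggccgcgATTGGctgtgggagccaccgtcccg
MVD, chr16:88663152-88663270, minus strand: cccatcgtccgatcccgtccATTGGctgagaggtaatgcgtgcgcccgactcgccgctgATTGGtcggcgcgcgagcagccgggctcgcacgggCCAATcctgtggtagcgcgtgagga
INSIG1, chr7:155297688-155297732, plus strand: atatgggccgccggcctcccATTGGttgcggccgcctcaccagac
SCD, chr10:100346984-100347071, plus strand: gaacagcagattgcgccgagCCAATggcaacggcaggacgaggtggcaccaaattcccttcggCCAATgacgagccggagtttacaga
MSMO1, the sterol C4-methyl oxidase, had 4 such boxes within its window, MVD, the mevalonate diphosphate decarboxylase, 3, and HMGCS1 and SCD 2 each. Among members not shown, MVK and NSDHL had 5 each. Another window of HMGCS1 had 0.

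The sterol regulatory element TCACNCCAC, searched on both strands, was present in 1 of the 39 windows (2.56%), that of SREBF2, against 1.13% of all windows. Its capitals start 133 bases before the SREBF2 start:
SREBF2, chr22:41832946-41833006, plus strand: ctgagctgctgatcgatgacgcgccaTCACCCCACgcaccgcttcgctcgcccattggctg
The GC box GGGCGG was in 35 of the 39 windows (89.7%) against 45.0% of all, the E-box CACGTG in 5 (12.8%) against 7.26%, and TTTGAA, the letters of the cell cycle CHR element, in 3 (7.69%) against 15.2%. No test was made on these shares, and a match is a string of letters, not a bound site.

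**Figure D1:**
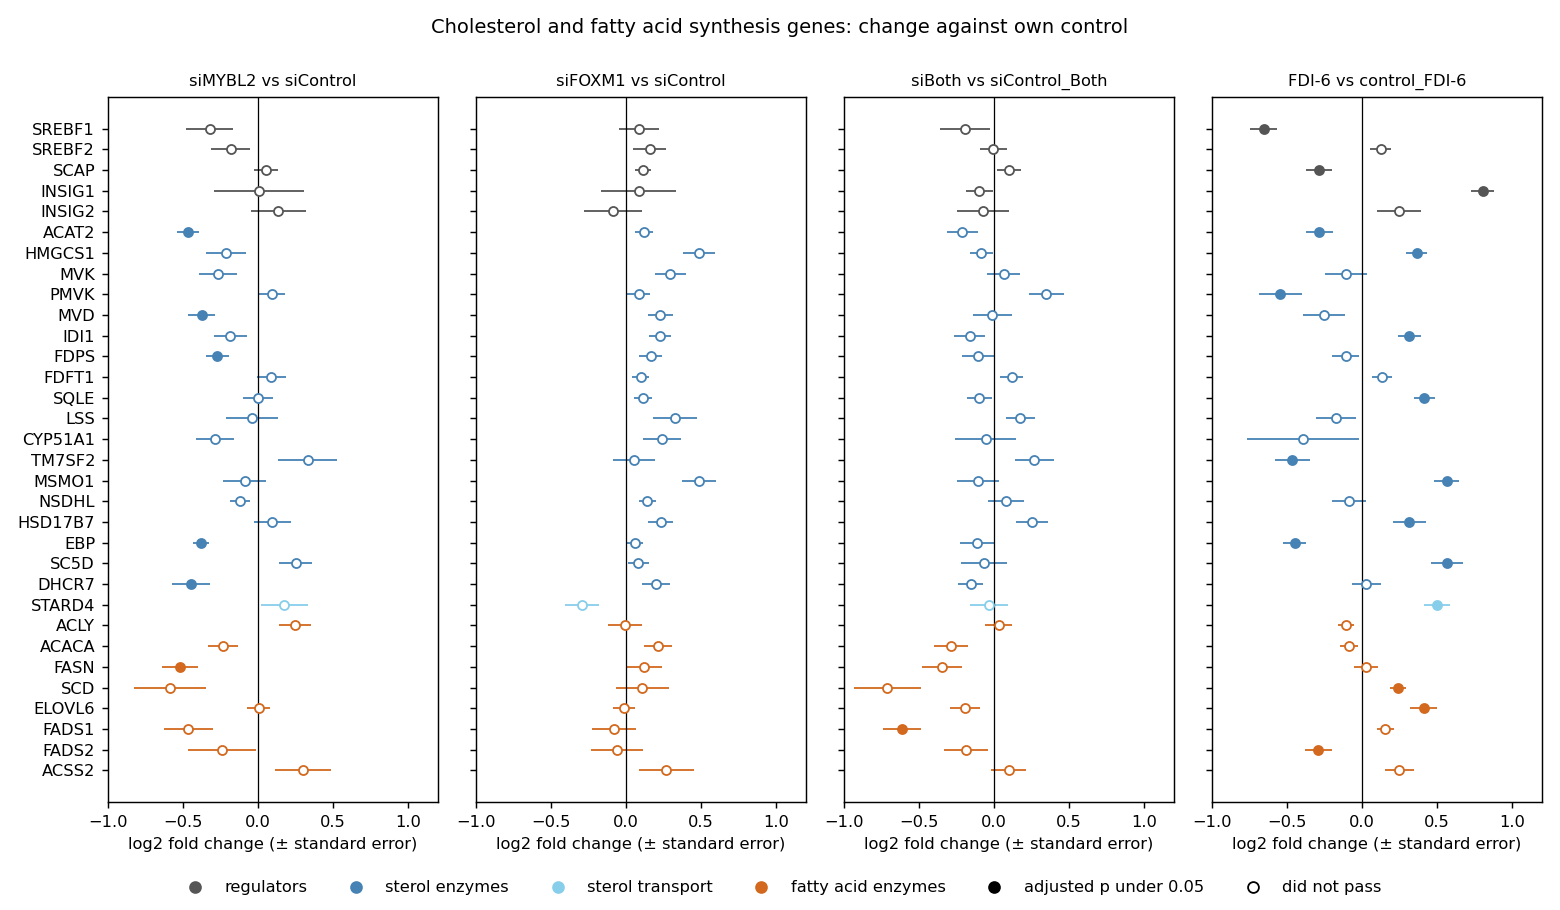
Log2 fold change (horizontal axis, bars are standard errors) of the 32 genes in each of 4 comparisons with their own control, filled where the edgeR adjusted p was under 0.05. siMYBL2 has 6 filled points, all to the left, siFOXM1 has none although all 18 sterol enzymes lie to the right, siBoth has 1, and FDI-6 has 17 on both sides.

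Without pairing of replicates, MYBL2 knockdown lowered some sterol enzymes and 1 of 8 fatty acid enzymes, each by less than 1.5-fold. Of the 18 sterol enzymes 5 fell: ACAT2, which joins acetyl-CoA units at the first step (log2 fold change -0.47 ± 0.07, SE), DHCR7, the last reductase of the pathway (-0.44 ± 0.13), EBP (-0.38 ± 0.06), MVD (-0.38 ± 0.09) and FDPS, which makes farnesyl diphosphate (-0.27 ± 0.08). FASN fell by 0.52 ± 0.12 on the log2 scale. With edgeR's quasi-likelihood test adjusted over all 16065 genes, 6 of the 32 genes fell, 0 rose, and 26 did not pass. Of all genes tested, 9.53% fell and 8.53% rose. None of the 6 passed the 1.5-fold rule, which 3.52% of all genes passed downward and 4.38% upward. With upper-quartile scaling the split of all genes turned, with 7.56% fallen and 11.0% risen.

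FASN stood at 491, 429, 557 and 499 CPM in siMYBL2 replicates 1 to 4 and at 647, 643, 870 and 672 CPM in siControl. Every siMYBL2 library lay below every siControl library, and the third control was the highest of the 8. The adjusted p of FASN was 0.0180, and 0.0528 without siMYBL2 replicate 1. DHCR7 had 126, 89.8, 122 and 129 CPM in siMYBL2 against 163, 132, 174 and 166 in siControl, again with no overlap, although the second control came close to the highest knockdown library. Its adjusted p of 0.0409 was lost in 5 of the 8 fits that left out 1 library, where it reached 0.0959. ACAT2 and EBP passed in all 8 such fits, MVD in 6 and FDPS in 2.

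SCD had the lowest fold change of the 32 (-0.59 ± 0.24, adjusted p = 0.125) but a wide spread. It stood at 1267, 784, 1117 and 1741 CPM in siMYBL2 and at 1781, 1345, 1847 and 2407 CPM in siControl, so the groups overlapped. In both groups replicate 2 was the lowest and replicate 4 the highest. FADS1, the delta-5 desaturase, behaved alike, with 431, 302, 418 and 497 CPM against 563, 447, 584 and 685 (-0.47 ± 0.16, adjusted p = 0.0806).

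Because same-numbered libraries moved together, the comparison was also fitted with the replicate number as a block. Then 16 of the 32 genes fell and 4 rose, where 23.1% of all genes fell and 23.6% rose. SCD fell by 0.61 (adjusted p = 7.1e-07) and was the only one of the 32 called down past 1.5-fold (4.71% of all genes were). FADS1 fell by 0.47, FADS2 by 0.26 and ACACA, the acetyl-CoA carboxylase, by 0.23, which made 5 of 8 fatty acid enzymes with FASN and SCD. ACLY (0.25) and the acetyl-CoA synthetase ACSS2 (0.29) rose. Of the sterol enzymes 9 fell, and TM7SF2 (0.31) and SC5D (0.24) rose. SREBF1 (-0.33) and SREBF2 (-0.19) fell in this fit, while SCAP, INSIG1 and INSIG2 did not pass in either. Within pairs, 8 of 18 sterol and 5 of 8 fatty acid enzymes were lower in all 4, and 1 and 2 were higher, against 28.1% and 29.0% of all genes. Without pairing 7 of the 32 genes lay below all controls and 0 above, against 12.3% and 10.9%.

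SREBF1 stood at 313, 226, 296 and 359 CPM in siMYBL2 and at 387, 290, 389 and 430 in siControl, lower in each of the 4 pairs. SREBF2 stood at 166, 126, 160 and 190 CPM against 183, 161, 169 and 216, also lower in each pair. INSIG1, a sensor of sterol and itself an SREBP target, had 150, 66.6, 181 and 149 CPM against 134, 92.3, 190 and 127, with no common direction (0.01 ± 0.30). ACLY had 995, 968, 1164 and 1119 CPM against 834, 821, 1077 and 851, higher in each pair, while its groups overlapped. SQLE had 178, 134, 179 and 170 CPM against 168, 155, 177 and 162, with only the second library low (adjusted p = 0.997). HMGCS1, the HMG-CoA synthase, had 155, 98.3, 136 and 144 CPM against 152, 154, 173 and 141 (-0.21 ± 0.13, adjusted p = 0.303). Pairs 1 and 4 were level and pairs 2 and 3 lower.

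**Figure D2:**
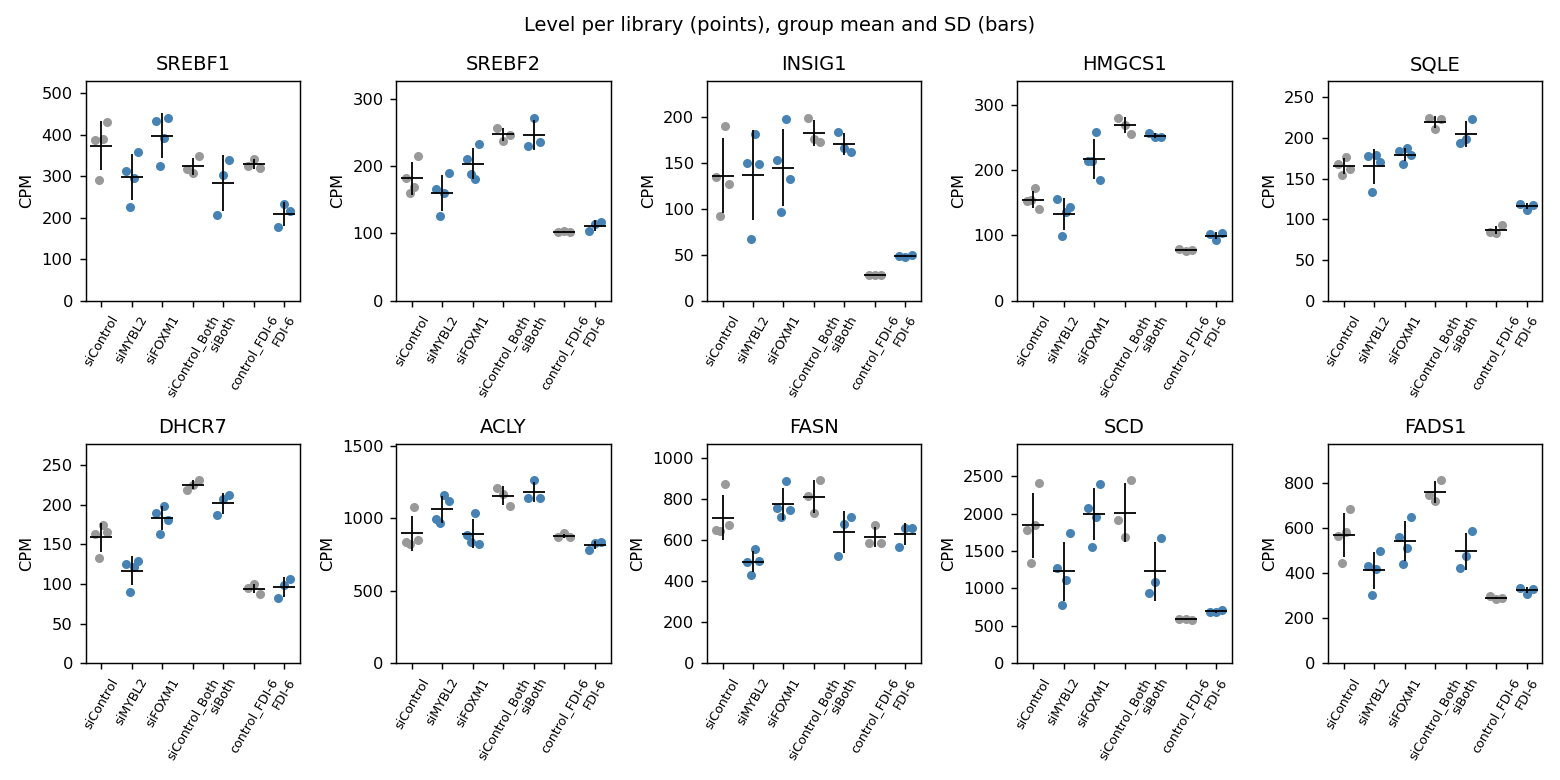
CPM in each library (points) of 10 genes by group, with the group mean and SD (bars), control groups in grey. FASN and DHCR7 of siMYBL2 lie below all siControl libraries, HMGCS1 of siFOXM1 lies above them, and INSIG1 of FDI-6 lies between 46.9 and 49.5 CPM against 27.4 to 28.0 in its controls.

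After FOXM1 knockdown the sterol enzymes lay slightly above their controls, and edgeR passed 0 of the 18 without the replicate block and 12 with it. All 18 sterol enzymes had a fold change above 0 (median 0.18, range 0.05 to 0.49), where the median over all 15892 genes was 0.00. The highest were MSMO1 (0.49 ± 0.11, adjusted p = 0.0796) and HMGCS1 (0.48 ± 0.11, adjusted p = 0.0684). Without the block, edgeR passed 0 of the 32 genes, with 1.09% of all genes fallen and 0.277% risen. At an unadjusted p under 0.05 it passed 9 of them, 8 higher and 1 lower, and DESeq2 passed 2, HMGCS1 and MSMO1, both higher. The same 2 genes passed with all 24 libraries in 1 fit, HMGCS1 alone without the filter on low counts, and MSMO1 alone with the GC and length offset. By the 1.5-fold rule 0 were called, against 0.591% of all genes called down and 0.0755% up.

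HMGCS1 stood at 214, 213, 258 and 184 CPM in siFOXM1 and at 152, 154, 173 and 141 CPM in siControl. Every siFOXM1 library was above every control library, and the 4 pairs differed by 0.386 to 0.579 on the log2 scale. MSMO1 stood at 99.6, 85.6, 97.3 and 118 CPM against 70.0, 65.6, 65.1 and 84.2, also without overlap, with pair differences of 0.384 to 0.580. It is named here after its values were seen. IDI1, NSDHL and HSD17B7 did not overlap with their controls either, which made 5 of 32 genes above and 0 below, where 4.52% and 4.81% of all genes were so placed.

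With the replicate block 19 of the 32 genes rose and 1 fell, where 12.3% of all genes rose and 14.0% fell. The 19 were 12 sterol enzymes, 4 fatty acid enzymes and 3 regulators. HMGCS1 (adjusted p = 1.6e-11) and MSMO1 (1.5e-10) rose by 0.48 each, LSS, the lanosterol synthase, by 0.33, and the mevalonate kinase MVK by 0.29. FASN (0.13), SCD (0.12), ACACA (0.22) and ACSS2 (0.26) were the fatty acid enzymes that rose. SREBF2 (0.16), SCAP (0.11) and SREBF1 (0.09) were the regulators. STARD4, which carries cholesterol between membranes, was the gene that fell (-0.29, adjusted p = 4e-05). With a GC and length offset added to the block 23 rose and 2 fell (background 14.2% and 13.7%).

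Within pairs, 14 of 18 sterol enzymes were higher in all 4 and 0 were lower in all 4, against 20.9% and 19.6% of all genes. The other 4 each had 1 pair the other way: ACAT2 (-0.015), SC5D (-0.002) and CYP51A1 (-0.207) in pair 4, and PMVK (-0.092) in pair 1. Of the fatty acid enzymes 3 of 8 were higher in all 4 pairs and 1, FADS1, lower. FADS1 stood at 562, 441, 510 and 651 CPM in siFOXM1 against 563, 447, 584 and 685 in siControl.

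The other landmark genes overlapped widely with their controls. FASN had 755, 710, 885 and 744 CPM in siFOXM1 against 647, 643, 870 and 672, and SCD 2080, 1556, 1948 and 2400 against 1781, 1345, 1847 and 2407. ACLY had 886, 835, 1038 and 820 CPM against 834, 821, 1077 and 851, with no common direction. SQLE had 184, 168, 187 and 179 CPM against 168, 155, 177 and 162, higher in each pair. DHCR7, at 190, 163, 199 and 180 CPM against 163, 132, 174 and 166, was also higher in each pair. SREBF1 had 435, 325, 393 and 442 CPM, SREBF2 210, 189, 182 and 234, and INSIG1 153, 96.9, 198 and 132, each above its same-numbered control, whose values are given above.

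**Figure D3:**
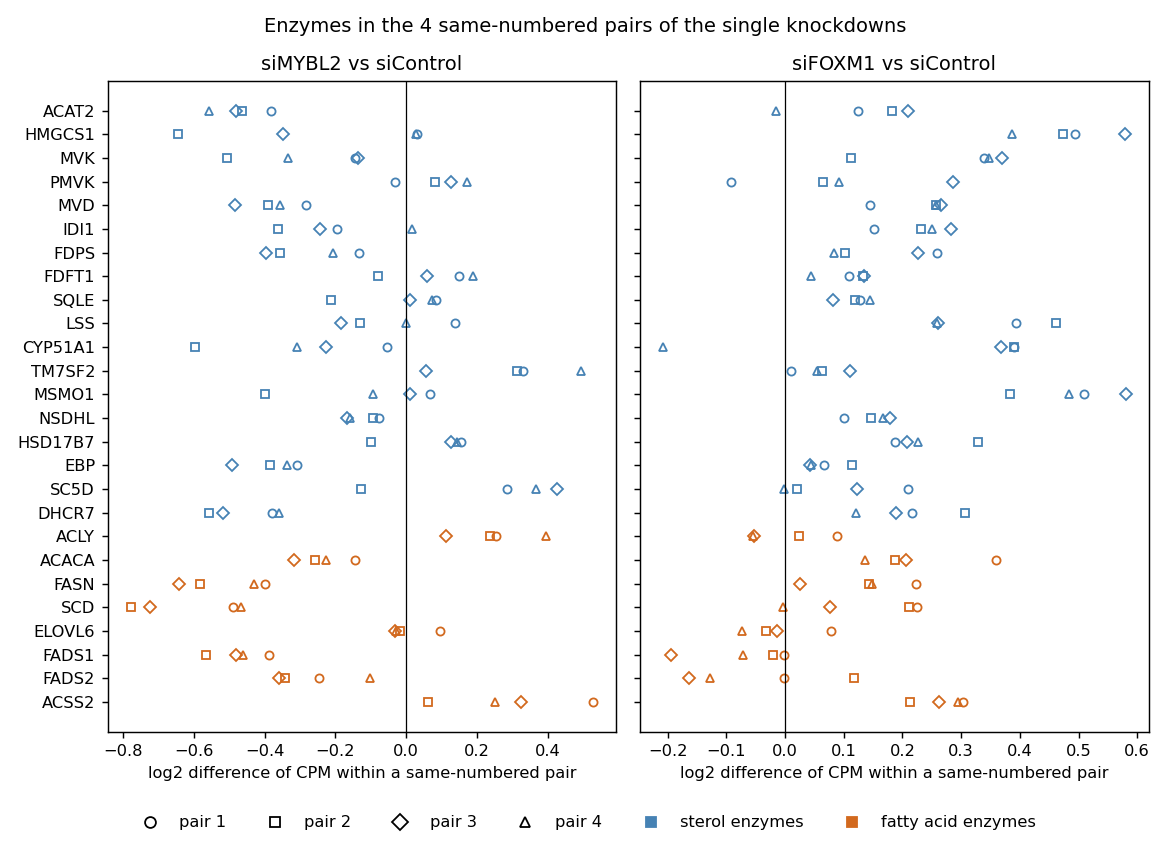
Log2 difference of CPM between the knockdown and the control library of the same number (horizontal axis) for 26 enzymes, with 1 marker shape per pair. In siFOXM1 14 of 18 sterol enzymes have all 4 pairs above 0, and in siMYBL2 8 of 18 have all 4 below 0.

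The 2 knockdowns were then compared directly, without their shared control, in an unpaired fit of all 24 libraries. Sterol and fatty acid genes were lower after MYBL2 knockdown than after FOXM1 knockdown: 16 of the 32 were lower and 2 higher, where 13.0% of 17752 genes were lower and 12.3% higher. Of the sterol enzymes 10 of 18 were lower and 0 higher, and their median difference was -0.43 against 0.00 over all genes. Of the fatty acid enzymes 4 of 8 were lower and 1 higher, with a median of -0.29. By the 1.5-fold rule 6 of the 32 were called lower and 0 higher, against 4.51% and 6.28% of all genes.

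HMGCS1 differed by -0.71 ± 0.11 (adjusted p = 3.6e-05), with 98.3 to 155 CPM in siMYBL2 and 184 to 258 in siFOXM1. SCD differed by -0.70 ± 0.21 (adjusted p = 0.0151), although its 784 to 1741 CPM overlapped with 1556 to 2400. Libraries were not paired in this fit, and SCD was lower in siMYBL2 in each same-numbered pair. Its adjusted p was 0.0557 without siMYBL2 replicate 2. DHCR7 (-0.65 ± 0.10, adjusted p = 7.4e-05) and FASN (-0.65 ± 0.11, 0.000170) had no overlap, with 89.8 to 129 against 163 to 199 CPM and 429 to 557 against 710 to 885. MVD (-0.61) and ACAT2 (-0.59) completed the 6. Smaller differences that passed were those of MSMO1 (-0.58), MVK (-0.57), ACACA (-0.46), EBP (-0.45), FDPS (-0.44), IDI1 (-0.42), SREBF1 (-0.42), FADS1 (-0.39), SREBF2 (-0.35) and NSDHL (-0.27).

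STARD4 (0.46 ± 0.13, adjusted p = 0.0107) and ACLY (0.25 ± 0.09, adjusted p = 0.0417) were higher in siMYBL2. ACLY and SREBF1 each lost the call in 10 of the 24 fits that left out 1 library, FADS1 in 6 and NSDHL in 4. All losses of FADS1 and NSDHL came from leaving out a siMYBL2 or siFOXM1 library. Only these groups enter the difference itself, and the other libraries bear on its filter, scaling and spread. The adjusted p of STARD4 was 0.0504 without siMYBL2 replicate 4, and that of SREBF2 reached 0.0756 without siMYBL2 replicate 2 or siFOXM1 replicate 4. The other genes named above as lower passed in all 24 such fits, apart from SCD. CYP51A1, LSS and FADS2 (lower) and INSIG2 and TM7SF2 (higher) passed only with the replicate number as a block. For that fit the share of all genes was not counted.

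With both genes targeted, 1 of 8 fatty acid enzymes fell and 0 of 18 sterol enzymes passed. FADS1 was the only one of the 32 genes to pass (-0.61 ± 0.13, adjusted p = 0.0194), and it was past 1.5-fold. Of all 15812 genes 7.77% fell and 4.55% rose, and 3.64% were called down and 2.80% up. With upper-quartile scaling 5.22% of all genes fell and 6.73% rose. The median log2 fold change was -0.24 over the 8 fatty acid enzymes, -0.06 over the 18 sterol enzymes and 0.02 over all genes.

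FADS1 stood at 425, 478 and 587 CPM in siBoth and at 748, 720 and 812 CPM in siControl_Both, with no overlap. The call was lost without siBoth replicate 1 or 2 and without siControl_Both replicate 2 or 3 (adjusted p up to 0.0722). SCD stood at 934, 1082 and 1677 CPM against 1909, 1690 and 2445, without overlap but with the third siBoth library just under the second control (-0.71 ± 0.22, adjusted p = 0.0747). FASN stood at 523, 679 and 712 CPM against 813, 729 and 890 (-0.34 ± 0.13, adjusted p = 0.126). The first siBoth library was the lowest of its group for all 3 genes. Within same-numbered pairs 6 of 8 fatty acid enzymes were lower in all 3 and 0 higher, and 5 of 18 sterol enzymes were lower and 2 higher (30.5% and 30.7% of all genes).

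With the replicate block, FADS1 (-0.62), SCD (-0.74), FASN (-0.35) and ACACA (-0.29) fell, and PMVK (0.34) and HSD17B7 (0.26) rose. That was 4 fallen and 2 risen of the 32, where 18.5% of all genes fell and 16.3% rose. Together with a GC and length offset 11 fell and 1 rose, against 18.0% and 18.2% of all genes, and the sterol median moved to 0.02. Across all genes, fold changes in siBoth went with transcript GC content (Spearman's rho 0.330 over 15747 genes, which are not independent). Over the 32 genes rho was 0.179 without the offset and -0.380 with the offset alone. Between 9.09% and 10.9% of read pairs were not aligned in siBoth and 7.68% to 7.92% in its controls. The part of either in the result was not tested.

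The other landmarks showed small differences. HMGCS1 had 258, 250 and 251 CPM against 281, 270 and 256, SQLE 194, 199 and 223 against 225, 211 and 223, and DHCR7 187, 207 and 212 against 219, 225 and 231. DHCR7 did not overlap with its controls, yet did not pass (-0.16 ± 0.08, adjusted p = 0.239). ACLY had 1140, 1262 and 1141 CPM against 1212, 1170 and 1087. SREBF1 had 208, 302 and 340 CPM against 317, 307 and 348, SREBF2 231, 273 and 236 against 258, 238 and 247, and INSIG1 184, 166 and 162 against 199, 176 and 173. These 4 overlapped with their controls. In all, 6 of the 32 lay below and 1 above without overlap, against 18.8% and 16.3% of all genes.

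The difference between the siBoth effect and the siMYBL2 effect passed edgeR's test in 0 of the 32 genes (0.276% of 17752 genes were below 0 and 0.0282% above). At an unadjusted p under 0.05 it passed 2, both above 0, and DESeq2 passed 0. The 2 were ACAT2 (0.26 ± 0.11) and EBP (0.26 ± 0.10). The median difference was 0.19 for the sterol enzymes and -0.13 for the fatty acid enzymes, and -0.12 ± 0.31 for SCD and -0.15 ± 0.21 for FADS1. The siMYBL2 and siBoth libraries come from different experiments with different controls.

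With FDI-6, 6 of 18 sterol enzymes rose and 4 fell, and 2 of 8 fatty acid enzymes rose and 1 fell. Of the 32 genes 10 rose and 7 fell, where 21.0% of 15240 genes rose and 17.9% fell. INSIG1 rose by 0.80 ± 0.08 on the log2 scale (adjusted p = 1.6e-05) and SREBF1 fell by 0.65 ± 0.09 (adjusted p = 0.000209), and only these were past 1.5-fold (8.00% of all genes up, 5.77% down). Sterol enzymes that rose were SC5D (0.57), MSMO1 (0.56), SQLE (0.41), HMGCS1 (0.36), IDI1 (0.31) and HSD17B7 (0.31). Those that fell were PMVK (-0.54), the sterol reductase TM7SF2 (-0.46), EBP (-0.45) and ACAT2 (-0.28). STARD4 rose (0.50), and of the fatty acid enzymes the elongase ELOVL6 (0.41) and SCD (0.24) rose and FADS2 (-0.29) fell. SCAP fell by 0.29.

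INSIG1 stood at 48.5, 46.9 and 49.5 CPM with FDI-6 and at 27.6, 27.4 and 28.0 CPM in control_FDI-6, a tight separation. SREBF1 stood at 178, 233 and 216 CPM against 325, 342 and 319. Neither overlapped, and both calls held in all 6 fits that left out 1 library. HMGCS1 (102, 93.0 and 104 CPM against 78.9, 75.3 and 77.2) and SQLE (119, 112 and 117 against 84.7, 83.5 and 92.4) were likewise apart from their controls.

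SCD stood at 682, 681 and 716 CPM against 597, 585 and 575, and FADS1 at 333, 309 and 329 against 297, 287 and 288, all treated libraries above all controls. ACLY stood at 784, 831 and 835 CPM against 872, 896 and 871, all below (-0.11 ± 0.05, adjusted p = 0.130). FASN (565, 657 and 658 CPM against 586, 672 and 585), DHCR7 (82.4, 99.2 and 106 against 95.2, 99.6 and 87.5) and SREBF2 (103, 114 and 118 against 102, 104 and 102) overlapped, SREBF2 in its first library alone. Over the 32 genes 13 lay above and 9 below without overlap, against 26.7% and 24.8% of all genes. HSD17B7 lost its call in 5 of the 6 fits that left out 1 library, ACAT2 in 4, FADS2 in 3, SCAP in 2 and PMVK in 1, control_FDI-6 replicate 1, without which its adjusted p was 0.0625.

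The direction went with transcript GC content. The genes that rose had a median GC of 40.2% and those that fell 59.0%, and Spearman's rho between GC and log2 fold change was -0.719 over the 32 genes and -0.489 over 15176 genes, where genes share libraries and are not independent. With an offset for GC and length, rho over the 32 was -0.134 and over all genes 0.009. The offset is fitted to take out the trend with GC and length, so a rho near 0 over all genes was set in advance. It would also take out an effect of FDI-6 that goes with GC, and the 2 cannot be told apart here. Then 8 of the 32 rose and 5 fell (14.9% and 16.7% of all genes), and the sterol median moved from -0.10 to 0.12. HMGCS1 went from 0.36 to 0.04 (adjusted p = 0.659), and IDI1, SC5D, STARD4, SCD, ELOVL6, SCAP, PMVK, TM7SF2 and FADS2 also lost their calls. INSIG1 (0.73), MSMO1 (0.39), HSD17B7 (0.39) and SQLE (0.37) still rose, and SREBF1 (-0.46), EBP (-0.20) and ACAT2 (-0.23) still fell. Newly past the test were ACSS2, DHCR7, SREBF2 and FDFT1 upward and ACACA and ACLY downward. No member was then called down by the 1.5-fold rule (3.64% of all genes were). The summed CPM of the epithelial marker genes was also lower, at 6026 to 6949 with FDI-6 and 9813 to 10591 in its controls, and its part in the result was not tested.

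**Figure D4:**
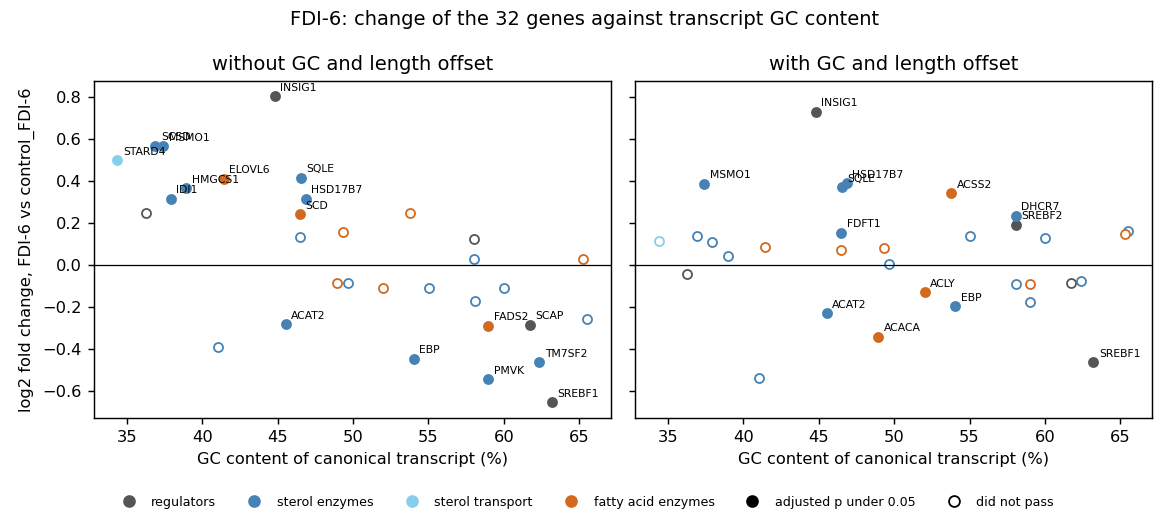
Log2 fold change with FDI-6 (vertical axis) against GC content of the canonical transcript in percent (horizontal axis) for the 32 genes, without and with an offset for GC and length, filled where the edgeR adjusted p was under 0.05. Points fall from upper left to lower right without the offset (rho -0.719) and lie flat with it (rho -0.134), while INSIG1 stays high and SREBF1 low. The offset is built to remove the trend with GC over all genes.

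FDI-6 and FOXM1 knockdown, each relative to its own control, differed in 7 of the 32 genes without the replicate block. SREBF1 (-0.74 ± 0.23), PMVK (-0.63 ± 0.17), EBP (-0.51 ± 0.11), ACAT2 (-0.41 ± 0.11) and SCAP (-0.40 ± 0.11) were lower with FDI-6, and STARD4 (0.79 ± 0.20) and ELOVL6 (0.42 ± 0.12) higher, where 8.12% and 11.8% of all genes were. EBP had the lowest adjusted p of the 7, at 0.00163. ACAT2, EBP and STARD4 passed in all 24 fits that left out 1 library. PMVK, SCAP and ELOVL6 each lost the call in 1 and SREBF1 in 3 of them (adjusted p up to 0.0823). Each of these losses came from leaving out a FDI-6, control_FDI-6 or siControl library. Libraries of siMYBL2, siBoth and siControl_Both do not enter the difference itself. INSIG1, SC5D, SQLE and FADS1 (above 0) and ACACA, FDPS, LSS, MVD, MVK and TM7SF2 (below 0) passed only with the replicate block. So 15 of the 32 passed neither with nor without it, and the share of all genes was not counted for that fit. With the GC and length offset 2 of the 32 passed, ACAT2 (-0.38) and ACACA (-0.56). HMGCS1 (-0.12 ± 0.16) and MSMO1 (0.07 ± 0.20) rose with FDI-6 and were above 0 with FOXM1 knockdown, and their difference did not pass without the offset.

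The 2 branches were then set side by side by library. The median over enzymes of the log2 CPM, relative to the mean of the own controls, was -0.44, -0.30 and -0.09 for the fatty acid branch in siBoth, where the third library lay within the range of its controls (-0.14 to 0.11). For the sterol branch it was -0.06, 0.03 and 0.01, against -0.05 to 0.06 in the controls. In siFOXM1 the sterol medians were 0.20, 0.09, 0.27 and 0.19, all above the 4 controls (-0.08 to 0.07), while the fatty acid medians of 0.08, -0.13, 0.09 and 0.24 overlapped with theirs (-0.13 to 0.23), the highest just above the highest control. In siMYBL2 the sterol medians were -0.01, -0.45, -0.16 and -0.03 and the fatty acid medians -0.26, -0.53, -0.28 and 0.01, with replicate 2 the lowest in both. The sterol medians of replicates 1 and 4 and the fatty acid median of replicate 4 lay within the ranges of the same controls. With FDI-6 the sterol medians were -0.24, -0.12 and 0.17, outside the range of their controls (-0.03 to 0.04) but on both sides of it. The fatty acid medians were 0.04, 0.10 and 0.14, all above their controls (-0.01 to 0.02). No test was made on these medians.

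**Figure D5:**
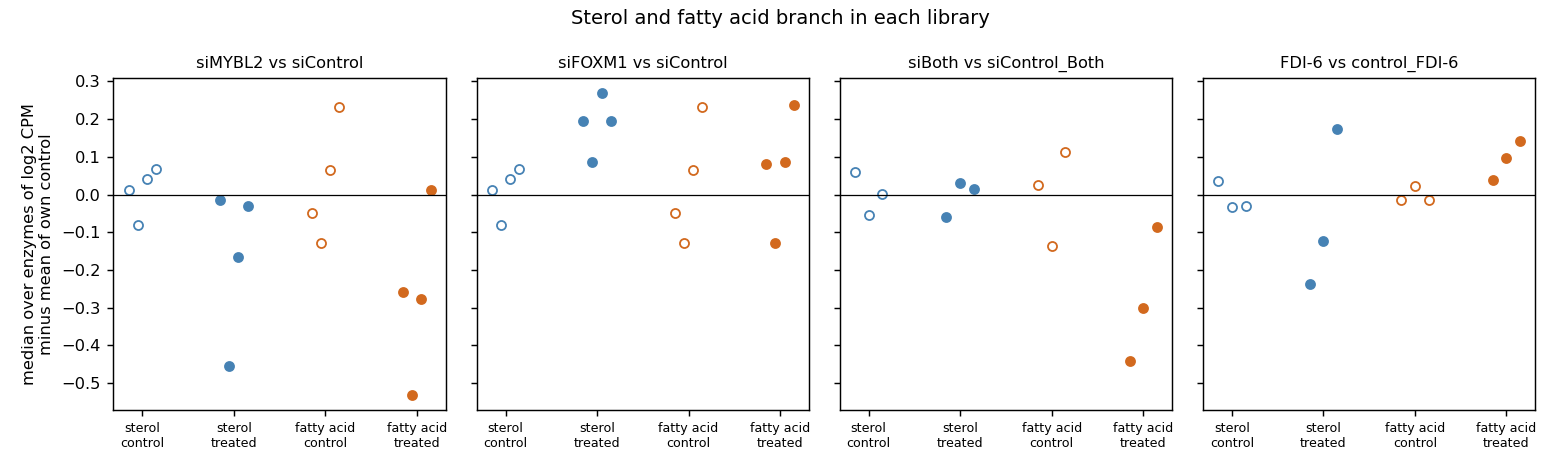
Median over enzymes of log2 CPM minus the mean of the own control libraries (vertical axis), 1 point per library, for 18 sterol enzymes (blue) and 8 fatty acid enzymes (orange), controls open and treated libraries filled. Sterol points of siFOXM1 lie above 0, between 0.09 and 0.27, and fatty acid points of siBoth below it, between -0.44 and -0.09, the highest of them within the range of its controls.

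Genes around the 2 branches were counted from 3 further lists, to be read against the shares of all genes: 9.53% fell and 8.53% rose in siMYBL2, 7.77% and 4.55% in siBoth, and 17.9% and 21.0% with FDI-6. The lists were counted without the GC and length offset only, also for FDI-6, where fold changes went with transcript GC content. Of 21 sterol handling genes, siMYBL2 changed 3: NR1H2, the liver X receptor beta, fell (-0.63), and the sterol exporter ABCG1 (0.86) and ERLIN2 (0.32) rose. siFOXM1 changed 0 of the genes of any of the 3 lists, where only 1.09% of all genes fell and 0.277% rose. In siBoth LBR, a sterol reductase of the nuclear envelope, and NPC1, the lysosomal cholesterol exporter, fell and NR1H3, the liver X receptor alpha, rose (0.64). FDI-6 raised 5 and lowered 2 of them, with NPC1 (1.15) and the exporter ABCA1 (1.10) highest.

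Of 23 further fatty acid and lipid synthesis genes, siMYBL2 raised 3 and lowered 2, where 8.53% of all genes rose and 9.53% fell. FADS3 (0.64, past 1.5-fold), ACACB (0.46) and DGAT1 (0.31) rose. HACD3 (-0.50), a dehydratase of fatty acid elongation, and MID1IP1 (-0.49) fell. In siBoth FADS3 (0.69) rose and HACD3 (-0.48) fell as well. FDI-6 raised 8 and lowered 4 of the 22 tested, where 21.0% of all genes rose and 17.9% fell. Among them were ACSL4 (0.98) and LPIN1 (0.81) upward and DGAT1 (-0.64), which makes triglyceride, downward. Of 10 fatty acid oxidation genes, siMYBL2 raised 4 and lowered 0: CPT1A, which admits fatty acids to mitochondria (0.59), ACADVL (0.36), HADHB (0.31) and ACADM (0.26). Their list median was 0.26 against 0.01 over all genes. DECR1 was the 1 that rose in siBoth (0.38), and FDI-6 lowered 3 and raised 0, ACADVL (-0.33), ACAA2 (-0.22) and HADHA (-0.19).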

How the data were processed

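Per the labels and the study's methods, the authors trimmed paired reads with Trim Galore, aligned them with STAR to hg38 and counted read pairs per GENCODE V29 gene with HTSeq (versions not given in the sources used here), and deposited raw counts per library. Rows that name no gene (not aligned, ambiguous and the like) were left out of library sizes. Ambiguous pairs made up 7.88% to 11.2% of all pairs in a library. Names, exon lengths and GC came from GENCODE V44, which named 58207 of the 58721 identifiers.

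The members and lists were chosen with earlier results of these data known. Each treatment was compared with its own control by edgeR 4.0.16 (R 4.3.3): TMM, filterByExpr, glmQLFit and glmQLFTest, Benjamini-Hochberg over all genes tested. A gene rose or fell at an adjusted p under 0.05 and was called when its fold change also passed 1.5. Effects were compared as contrasts in 1 fit of 24 libraries. CPM used TMM factors over all libraries. Values in every library are given for members called in at least 1 comparison, at most 4 per direction, and for SREBF1, SREBF2, INSIG1, HMGCS1, SQLE, FASN, SCD and ACLY. From other lists at most 2 called genes per direction were chosen by that rule, and some further ones named where a count was 5 or fewer.

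Alternatives were RLE and upper-quartile scaling, no filter, DESeq2 1.42.0, 1 library left out, all libraries in 1 fit, the replicate number as a block, and an offset for GC and length (natural splines with 5 degrees of freedom), which with the block was added to the difference contrasts after seeing the data. Same-numbered siRNA libraries deviated together from their group means (correlations over genes of 0.570 to 0.874 in siMYBL2, 0.537 to 0.905 in siFOXM1 and 0.552 to 0.687 in siBoth), so the numbers were taken as pairs. The code was tested on simulated counts.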

Additional observations from a re-analysis of the deposited data

Results flagged for a closer look

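In groups of 4 libraries, 1 library stood far from the other 3 in 7 of 96 tests, where chance gives about 1 in 20. The tests are not independent, because genes share libraries and same-numbered libraries deviated together. In siControl, ACLY was 1077 CPM in replicate 3 (nearest library 851) and FASN 870 CPM in the same library (nearest 672). Replicate 3 was also the highest for both genes in siMYBL2 and in siFOXM1. IDI1 was 88.8 CPM in siControl replicate 2 (nearest 101) and NSDHL 45.6 CPM in siControl replicate 4 (nearest 49.3). In siMYBL2, ELOVL6 was 61.4 CPM and LSS 44.2 CPM in replicate 2 (nearest 70.4 and 66.1), and PMVK was 31.6 CPM in replicate 4 (nearest 26.7). Outside the gene counts, at least 9.09% of read pairs were not aligned in the siBoth libraries, above the 7.92% at most in siControl_Both.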

How the results depend on the processing

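Of 2202 refitted values of members that passed with or without the block, 1930 kept their direction and side of the threshold, 122 lost it, 146 gained it and 4 turned. Those 4 were SREBF1 (-0.0183) and SCD (-0.0149) in siFOXM1 without siControl replicate 2 (up to 0.170 and 0.260 with another library left out), and SC5D in the FDI-6 minus siFOXM1 difference with the GC and length offset (-0.0106) and with that offset and the block (-0.00872). None of the 4 passed the test. Of values that did not pass, 71 of 912 changed sign under other settings and 126 of 1782 with 1 library left out. RLE scaling changed no count or median by these measures. For each change below the cause was not tested. CYP51A1 had few counts in the FDI-6 experiment, with 12 in 1 FDI-6 library and 47 in 1 of its controls.

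With the replicate block, siMYBL2 had 16 members fallen, 4 risen, 1 called down and 1991 genes called in all. siFOXM1 had 1 fallen and 19 risen with 401 genes called, and siBoth 4 fallen, 2 risen and 2 called down with 1849 genes called. The block gave 17 members in the FDI-6 minus siFOXM1 difference. Same-numbered FDI-6 libraries did not deviate together (correlations -0.286 to 0.159, 1 of 3 pairs positive above the limit used), and the block left 7 fallen and 9 risen there, of 15.6% and 18.3% of all genes. The block changed no other count of members by over 1.5 times.

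With the GC and length offset alone, siFOXM1 had 1 risen and siBoth 2 fallen with a sterol median of 0.0214. FDI-6 had 0 called down, 1334 genes called and a sterol median of 0.12, and the FDI-6 minus siFOXM1 difference 2 members. With the offset and the block, siMYBL2 had 15 fallen, 5 risen and 1 called down with 1986 genes called, and siFOXM1 2 fallen and 23 risen with 386. siBoth had 11 fallen, 1 risen and 2 called down with 1594 genes called and a sterol median of 0.0209. FDI-6 had 4 fallen, 0 called down, 1277 genes called and a sterol median of 0.11, and the siBoth minus siMYBL2 difference had 1 member.

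DESeq2 gave 2 risen in siFOXM1, and 2 fallen and 2 called down in siBoth. With all 24 libraries in 1 fit, siMYBL2 had 1 risen and 1 called down, siFOXM1 2 risen, and siBoth 2 fallen and 2 called down. Without the filter, siFOXM1 had 1 risen, and siBoth 3 fallen and 2 called down with 1545 genes called. With upper-quartile scaling siBoth had 0 called down and a sterol median of 0.0128, and FDI-6 2 called down and a fatty acid median of 0.0475.

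With 1 library left out, siMYBL2 had 3 to 7 members fallen, 0 to 1 risen and 0 to 1 called down, and siFOXM1 0 to 1 risen with 56 to 115 genes called. siBoth had 0 to 2 fallen and 0 to 2 called down with 587 to 1097 genes called. FDI-6 had 3 to 8 fallen, 0 to 2 called down and 1 to 3 called up, and its difference from siFOXM1 4 to 11 members. The siMYBL2 against siFOXM1 comparison had 14 to 20.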
